A study of Mus musculus with 6 samples.

Results

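The 10 genes described here encode transcription factors whose activity follows the strength of antigen receptor and calcium signals in T cells: Nfatc1, Nfatc2 and Nfatc3, Egr1, Egr2 and Egr3, Nr4a1, Nr4a2 and Nr4a3, and Irf4. The selection rule lists them by name and uses no measured value, although the list was drawn up with earlier results of these data known. They make up 10 of the 22180 genes that could be tested. Each of the 10 is measured by 1 probe set that the array annotation gives to that gene alone, so there is no second probe set to report for any of them.

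RNA was measured on Affymetrix Mouse Gene 2.0 ST arrays in CD4+ T cells purified from the spleens of female wild-type C57BL/6 mice about 8 weeks old. All cells were first stimulated for 24 h with antibodies against CD3, part of the T cell receptor complex, and against the costimulatory receptor CD28, each at 10 µg/mL. For the next 24 h they were kept either with 100 µM icilin, a synthetic cooling agent and opener of the TRPM8 and TRPA1 cation channels, or with its solvent DMSO. There were 3 arrays in each group, and the same 3 mice gave the cells for both. Both groups had thus been through the receptor stimulus, and no resting cells are among the samples. The levels below are therefore those of activated cells, and the size of their induction was not analysed here. All arrays were taken after 24 h with icilin or DMSO, so changes at earlier times were not measured. The values are log2 levels normalized by the authors, and a difference of 0.585 on that scale is 1.5-fold.

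As background, a calcium rise in a T cell activates the phosphatase calcineurin, which strips phosphate from NFAT proteins and lets them enter the nucleus, where several of them work with AP-1 factors on cytokine genes. EGR and NR4A genes are immediate early genes, switched on within minutes of receptor engagement through SRF and its ternary complex factors, CREB and MEF2 proteins. EGR2, EGR3 and the NR4A receptors are also known for restraining T cells that receive incomplete or prolonged stimulation. IRF4 rises in proportion to receptor signal strength and pairs with BATF on composite DNA elements during effector differentiation.

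Of the 10 factor genes, Nr4a2 fell and the other 9 did not pass the test, which asked for a limma adjusted p under 0.1, taken over all 22180 genes, together with a 1.5-fold or larger change. The same rule called 1.40% of all genes in either direction, 1.03% as lower and 0.37% as higher. For all 9 genes that did not pass, the 95% interval of the change lay inside the 1.5-fold limits, the widest reaching from -0.45 to -0.03 (Nfatc2). Among the 10 changes 8 were below 0 and the median was -0.11, where over all genes 47.0% were below 0 and the median was 0.011. Their levels stood between brightness percentiles 74.4 (Egr3) and 99.4 (Irf4) of all genes, so none was measured near the dim end of the array. In whole-culture RNA, fewer cells that express a gene and less of its RNA per cell cannot be told apart.

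**Figure D1:**
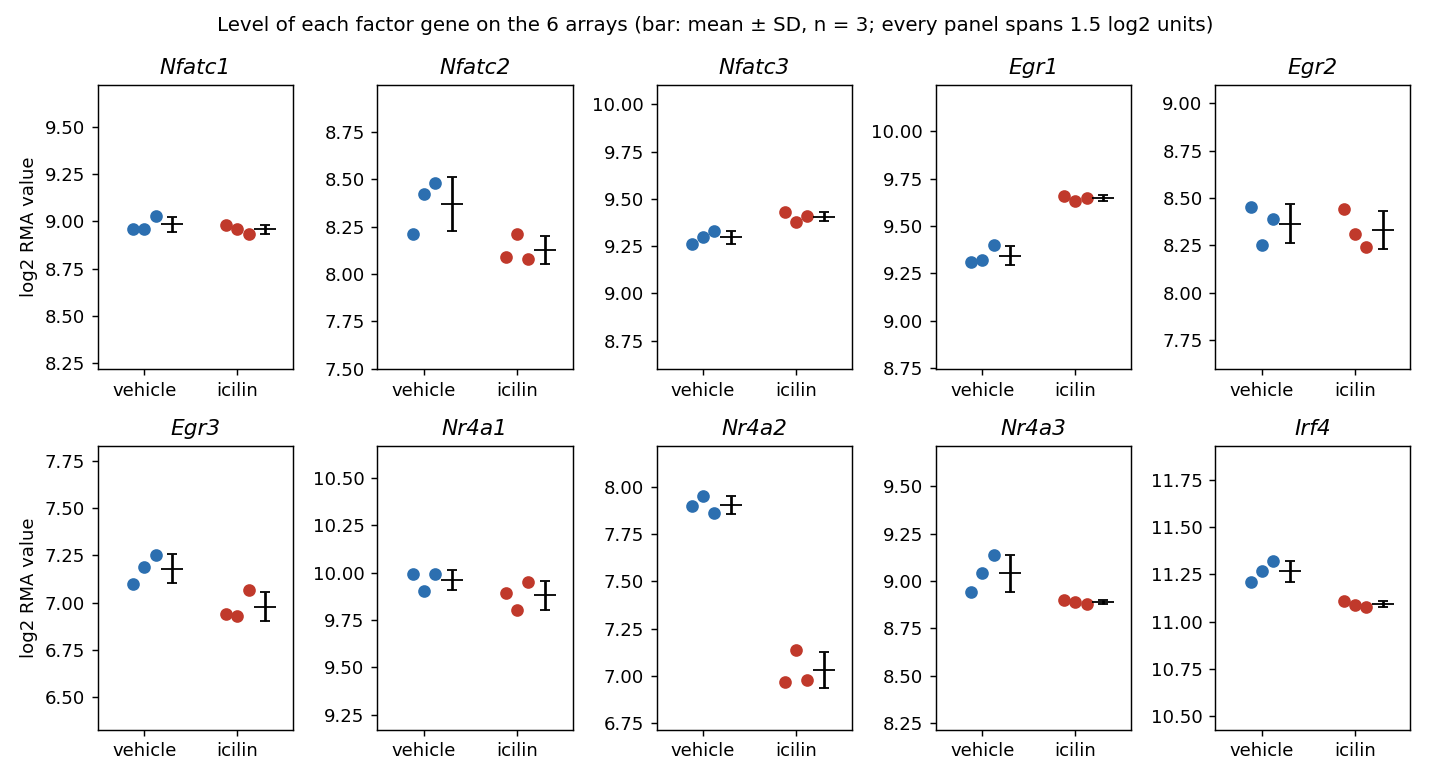
Log2 level (RMA value, vertical axis) of each of the 10 factor genes on the 3 vehicle arrays (blue) and the 3 icilin arrays (red), with the mean and SD of each group in black; every panel spans the same range of 1.5 log2 units. Nr4a2 drops from 7.90 to 7.03 while the other panels show shifts of at most 0.30.

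NR4A proteins are classed as orphan nuclear receptors, and the amount made is a main way to set their activity. Nr4a2, also called Nurr1, had log2 levels of 7.90, 7.95 and 7.86 on vehicle replicates 1, 2 and 3, and of 6.97, 7.14 and 6.98 on icilin replicates 1, 2 and 3. Every icilin array thus lay below every vehicle array, with a gap wider than the spread inside either group. The mean fell from 7.90 ± 0.04 (SD, n = 3) to 7.03 ± 0.10. The log2 fold change was -0.87 ± 0.07 (SE), or 1.83-fold (limma adjusted p = 0.00201). Over all 22180 genes this was the 125th largest change by size and the 66th smallest p.

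Nr4a1, also called Nur77 and widely used as a reporter of T cell receptor signalling, stood at 9.99, 9.90 and 9.99 on the vehicle arrays and at 9.89, 9.80 and 9.95 on the icilin arrays. These ranges overlap, and the difference of -0.08 ± 0.07 did not pass (limma adjusted p = 0.632). Nr4a3, also called Nor1, read 8.94, 9.04 and 9.14 with vehicle and 8.90, 8.89 and 8.88 with icilin. Its icilin arrays lay just under the lowest vehicle array, with a difference of -0.15 ± 0.07 and a limma adjusted p of 0.359.

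The 3 NR4A genes could also be compared inside each array, since taking the difference of a pair removes what an array shares. Such a difference between probe sets has no meaning as a level, and only its shift between groups is read. Nr4a1 minus Nr4a2 shifted by 0.79, from 2.06 ± 0.09 (SD, n = 3) on vehicle arrays to 2.85 ± 0.17 on icilin arrays. Nr4a2 minus Nr4a3 shifted by -0.72, from -1.14 ± 0.12 to -1.86 ± 0.10. In both pairs the groups did not overlap (exact permutation p = 0.1 each, two-sided, the smallest that 3 against 3 arrays can give; 0.15 adjusted over the 9 pairs compared within families). Nr4a1 minus Nr4a3 shifted by 0.07 and overlapped (exact permutation p = 0.5). So no pair could pass, and the difference inside the family is given by its size and by the separation of the arrays.

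The sequences just before the start sites of the 3 NR4A genes are shown because these related genes moved by unlike amounts while being known for a shared response to CREB. The 250 bases before each start come from RefSeq (GRCm38.p6) and are written 5′ to 3′ on the strand of the gene. Capitals mark the core TGACG of the cyclic AMP response element (CRE), or its complement CGTCA.
Nr4a1 (chr15:101266596-101266845, plus strand): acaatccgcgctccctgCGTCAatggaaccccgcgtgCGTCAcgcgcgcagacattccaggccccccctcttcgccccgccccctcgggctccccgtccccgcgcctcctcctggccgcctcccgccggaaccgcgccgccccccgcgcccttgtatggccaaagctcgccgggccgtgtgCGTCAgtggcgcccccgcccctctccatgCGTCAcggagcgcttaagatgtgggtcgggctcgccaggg
Nr4a2 (chr2:57124004-57124253, minus strand): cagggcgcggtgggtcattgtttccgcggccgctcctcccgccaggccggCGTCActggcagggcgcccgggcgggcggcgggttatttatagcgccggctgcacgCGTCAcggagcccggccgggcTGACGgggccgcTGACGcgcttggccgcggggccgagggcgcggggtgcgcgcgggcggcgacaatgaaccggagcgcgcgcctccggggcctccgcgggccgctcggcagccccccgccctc
Nr4a3 (chr4:48045055-48045304, plus strand): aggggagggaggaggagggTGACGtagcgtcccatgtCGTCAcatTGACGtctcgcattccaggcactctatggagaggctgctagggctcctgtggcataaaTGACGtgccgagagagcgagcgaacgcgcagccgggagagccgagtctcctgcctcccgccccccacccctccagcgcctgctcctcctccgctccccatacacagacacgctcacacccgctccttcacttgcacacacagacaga
Each of the 3 windows held 4 CRE cores, counted on both strands. Of 32851 RefSeq promoter windows of that length, 17.8% held at least 1 core and 0.14% held 4 or more. In Nr4a2 the cores ran from -200 to -196, -144 to -140, -123 to -119 and -111 to -107 relative to the start, in Nr4a1 the one nearest the start ran from -40 to -36, and in Nr4a3 from -147 to -143. The full CRE TGACGTCA was in none of the 3 windows and in 1.5% of all windows. The NFAT core GGAAA (or TTTCC) was found in the Nr4a2 window, from -230 to -226, and not in those of Nr4a1 and Nr4a3. It occurs in 55.6% of all windows, among them windows of Nfatc2, Nfatc3 and Egr2, which were not called. None of the 3 windows held the NR4A monomer element AAAGGTCA (1.3% of all windows), the EGR element GCGTGGGCG (0.5%), a CArG box (1.5%) or a MEF2 site (0.5%). These are matches of letters in the window, not measured binding.

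Among 10204 other genes at least as bright as the median gene, setting aside gene models without a proper name, small RNA genes, pseudogenes, segments of antigen receptor genes and receptors for odours and pheromones, the 3 whose levels followed Nr4a2 most closely over the 6 arrays were Batf (Pearson r = 0.9968), Smtnl2 (0.9964) and Tnfrsf9 (0.9964). With 2 groups of 3 arrays such values mostly reflect the step between groups, and 333 genes exceeded 0.95. Batf, an AP-1 factor that partners IRF4, read 8.05, 8.05 and 8.04 with vehicle and 7.53, 7.59 and 7.56 with icilin. That difference of -0.49 ± 0.06 had a limma adjusted p of 0.00737 but was short of 1.5-fold. Smtnl2, a smoothelin-like gene, fell from 7.30 ± 0.13 (SD, n = 3) to 5.85 ± 0.18 (limma adjusted p = 0.00146).

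**Figure D2:**
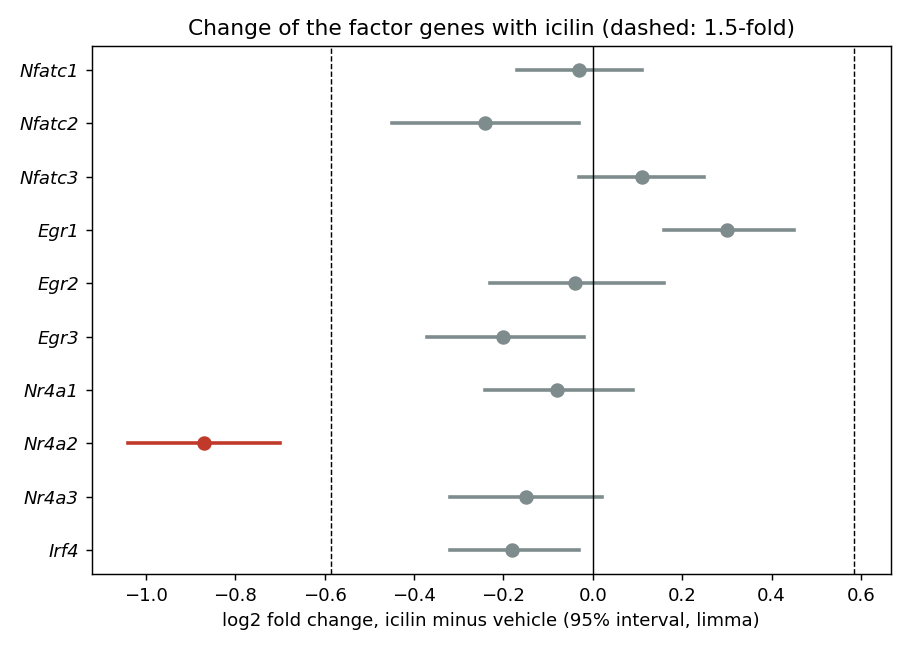
Log2 fold change, icilin minus vehicle (horizontal axis), of the 10 factor genes with the 95% interval from limma; dashed lines mark 1.5-fold in each direction. Nr4a2 at -0.87 (red) has an interval from -1.04 to -0.70, wholly past the limit, and the 9 grey intervals stay inside it.

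EGR proteins are zinc finger factors that bind GC-rich promoter elements. Egr1, a rapid target of the ERK pathway, had levels of 9.31, 9.32 and 9.40 on the vehicle arrays and 9.66, 9.63 and 9.65 on the icilin arrays. All icilin arrays were above all vehicle arrays, opposite to the direction of Nr4a2. The difference was 0.30 ± 0.06, or 1.23-fold, with a limma adjusted p of 0.0495, so it met the adjusted p and missed the fold limit. Without a fold limit 5.28% of all genes pass that adjusted p, 2.27% as higher. The adjusted p of Egr1 was above 0.1 without any 1 of icilin replicates 1, 2 and 3 and without vehicle replicate 1 or 2 (0.122 to 0.163), with a difference of 0.29 to 0.33 throughout.

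Egr2 and Egr3 are the members tied to T cell tolerance and restraint. Egr2 read 8.45, 8.25 and 8.39 with vehicle and 8.44, 8.31 and 8.24 with icilin. The groups overlap fully and the difference was -0.04 ± 0.08 (limma adjusted p = 0.872), with an interval from -0.23 to 0.16. Egr3 read 7.10, 7.19 and 7.25 with vehicle and 6.94, 6.93 and 7.07 with icilin, a difference of -0.20 ± 0.07. Its groups did not overlap, but by a margin smaller than the spread inside a group, and the limma adjusted p was 0.240.

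Within arrays, Egr1 minus Egr3 shifted by 0.50, from 2.16 ± 0.05 (SD, n = 3) to 2.67 ± 0.08, and Egr1 minus Egr2 by 0.34. Both pairs separated the groups (exact permutation p = 0.1 each, 0.15 adjusted). Egr2 minus Egr3 shifted by 0.16 and the groups overlapped (exact permutation p = 0.2, 0.225 adjusted).

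**Figure D3:**
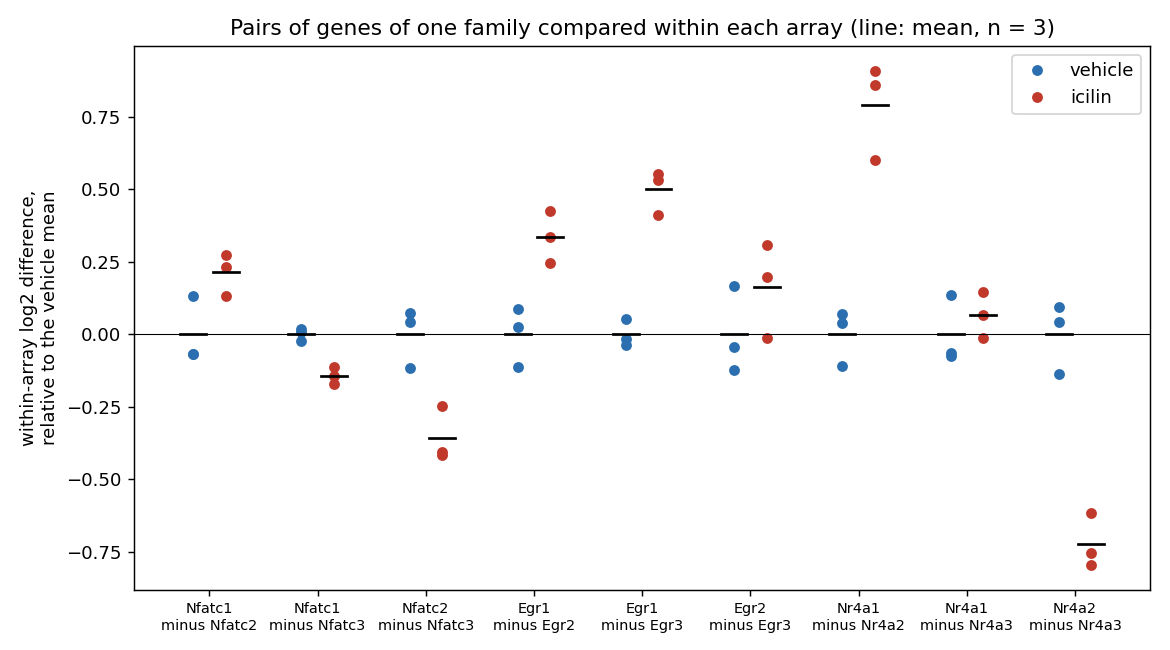
Difference of log2 levels between 2 genes of one family within each array, set relative to the vehicle mean of that pair (vertical axis, log2 units), for the 9 pairs; blue points are the 3 vehicle arrays, red points the 3 icilin arrays and lines the means. The pairs with Nr4a2 shift most (0.79 and -0.72), followed by Egr1 minus Egr3 (0.50). In 6 of the 9 pairs the groups do not overlap. Pairs of a family share genes, and the share over other gene pairs was not computed, so this count has no background.

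The NFAT genes encode the calcineurin-regulated factors themselves. Their activity is set mainly by where the protein sits in the cell, which an RNA level does not show. Nfatc1, whose short isoform is induced by NFAT in activated T cells, read 8.96, 8.96 and 9.03 with vehicle and 8.98, 8.96 and 8.93 with icilin. The arrays of the groups overlap, with a difference of -0.03 ± 0.06, an interval from -0.17 to 0.11 and a limma adjusted p of 0.840. The array summarises a gene over its probes, so isoforms were not told apart.

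Nfatc2, the main NFAT protein of resting T cells, read 8.21, 8.42 and 8.48 with vehicle and 8.09, 8.21 and 8.08 with icilin. Vehicle replicate 1 sat near the icilin arrays and the other two vehicle arrays above them, giving a difference of -0.24 ± 0.09 (limma adjusted p = 0.233). Nfatc3, a further member expressed in T cells, read 9.26, 9.30 and 9.33 with vehicle and 9.43, 9.38 and 9.41 with icilin. It was the only factor gene besides Egr1 whose icilin arrays were all higher, by 0.11 ± 0.06 (limma adjusted p = 0.403). Within arrays Nfatc2 minus Nfatc3 shifted by -0.35 and Nfatc1 minus Nfatc3 by -0.14, with separate groups (exact permutation p = 0.1 each, 0.15 adjusted), and Nfatc1 minus Nfatc2 by 0.21 with overlap (exact permutation p = 0.2, 0.225 adjusted).

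Irf4 was the brightest of the 10, in the top percent of all genes. It read 11.21, 11.27 and 11.32 with vehicle and 11.11, 11.09 and 11.08 with icilin. The groups did not overlap, yet the shift was small, -0.18 ± 0.06 or 1.13-fold, with an interval from -0.32 to -0.03 and a limma adjusted p of 0.212. Over 13 alternative settings that p ran from 0.00821 to 0.381 while the size stayed between -0.20 and -0.15.

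In all, the groups did not overlap for 6 of the 10 genes, with icilin lower for Egr3, Nr4a2, Nr4a3 and Irf4 and higher for Egr1 and Nfatc3. This has to be read against 24.1% of all genes and 36.8% of genes brighter than the median. For 5 of these 6 the shift was under 1.5-fold.

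The surroundings of these factors were followed in 7 lists that hold 138 measured genes, 8 of them on more than 1 list and 123 of them above the median brightness. Of the 138, limma called 11 lower and 2 higher. Among all genes brighter than the median 2.36% were called. The list members were written down with earlier results of this series known, so their counts are descriptions.

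Genes that control NFAT did not pass. The list held 19 measured genes, among them calcineurin subunits, calcineurin brakes and the kinases that send NFAT back out of the nucleus; limma and SAM called 0, and 2 with a higher and 3 with a lower level had an unadjusted limma p under 0.05, which 17.1% of all genes reached. The median was 0.01. The smallest p was that of Nfat5, the NFAT relative that answers osmotic stress and does not depend on calcineurin, at -0.39 ± 0.09 (limma adjusted p = 0.0756, short of 1.5-fold). Rcan1, a calcineurin inhibitor that is itself an NFAT target, read 5.85, 5.85 and 5.95 with vehicle and 6.02, 5.93 and 5.99 with icilin. These values overlap, with a difference of 0.10 ± 0.06 (limma adjusted p = 0.521; chosen, like Nab2, for its known role after its value was seen).

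Genes that switch EGR and NR4A genes on or off gave 0 calls as well. Of 21 measured genes, an unadjusted limma p under 0.05 was reached by 3 in the higher and 6 in the lower direction (17.1% of all genes reached it), SAM called 0, and the median was -0.04. The smallest p was that of Crem, a CREB relative that includes the repressor ICER, which read 6.48, 6.43 and 6.48 with vehicle and 6.01, 5.93 and 5.99 with icilin. Its difference of -0.49 ± 0.06 (limma adjusted p = 0.00920) was larger than the spread between arrays but below 1.5-fold. Without the fold limit 4 more genes, named after their values were seen, met the adjusted p, as did 5.28% of all genes. Lower were Elk3, a ternary complex factor partner of SRF (-0.48), the CREB coactivator gene Crtc2 (-0.37) and the class IIa deacetylase gene Hdac5, a repressor of MEF2 (-0.38). Higher was Nab1, a corepressor of EGR proteins (0.39), while its relative Nab2, itself an EGR target, stood at -0.20 (limma adjusted p = 0.180).

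Among 34 other early response genes 3 fell, 0 rose and 31 did not pass, with a median of -0.03. Over all genes 1.03% were called lower. Without the fold limit 8 met the adjusted p, all 8 lower, as did 5.28% of all genes in either direction. At an unadjusted limma p under 0.05 there were 11 lower and 3 higher, and 17.1% of all genes reached it. The 3 were the stress-inducible gene Ier3 (-2.04 ± 0.10) and the AP-1 genes Fosl2 (-1.01 ± 0.07) and Junb (-0.63 ± 0.07).

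**Figure D4:**
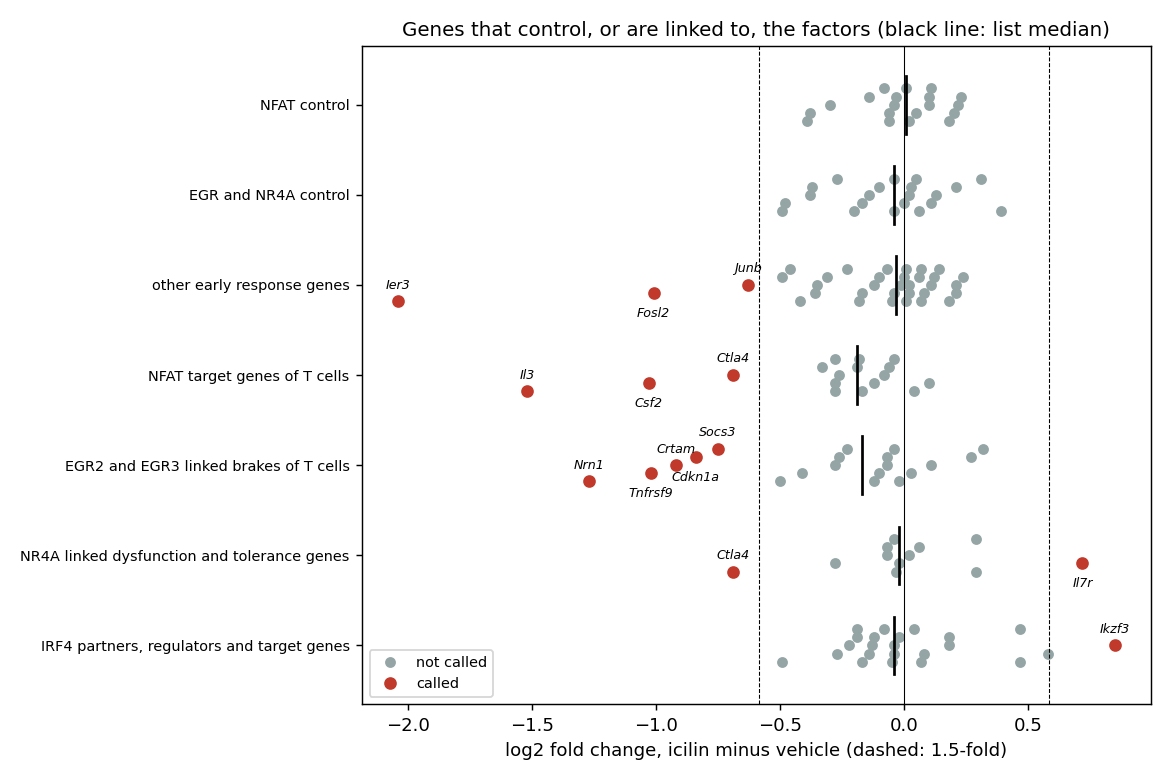
Log2 fold change, icilin minus vehicle (horizontal axis), of every measured gene of the 7 lists; red points passed the test and are named, grey points did not, black lines are list medians and dashed lines 1.5-fold. Both lists of control genes have 0 red points, and the medians run from -0.19 to 0.01.

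Among 17 NFAT target genes of T cells 3 fell, 14 did not pass and 15 changes were below 0, with a median of -0.19. Over all genes 1.03% were called lower and 47.0% were below 0. An unadjusted limma p under 0.05 was reached by 9 lower and 0 higher genes of the list, and by 17.1% of all genes. The cytokine gene Il3 read 4.50, 4.60 and 4.26 with vehicle and 2.60, 2.94 and 3.26 with icilin, a dim signal that fell by 1.52 on the log2 scale. The cytokine gene Csf2 fell by 1.03 and the inhibitory receptor gene Ctla4 by 0.69. The call of Csf2 ended when its probe sets were averaged (-0.48), since a second, dim one differed by 0.07.

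The next list held 20 genes linked to EGR2 and EGR3 in restrained T cells, surface receptors as well as brakes. Of these 5 fell, 15 did not pass and the median was -0.17, where 1.03% of all genes were called lower. An unadjusted limma p under 0.05 was reached by 9 lower and 2 higher genes of the list, and by 17.1% of all genes. The neuritin gene Nrn1, a surface protein made by anergic T cells, read 8.62, 8.53 and 8.59 with vehicle and 7.35, 7.31 and 7.26 with icilin. It was the largest fall of the list, -1.27 ± 0.06 (limma adjusted p = 0.000623), with no overlap of the arrays. The costimulatory receptor gene Tnfrsf9 (-1.02), the adhesion receptor gene Crtam (-0.92) and the cell cycle inhibitor gene Cdkn1a (-0.84) also fell, as did Socs3, an inhibitor of cytokine signalling (-0.75, named after its value was seen). Crtam was no longer called when either of icilin replicates 1 and 2 or either of vehicle replicates 2 and 3 was left out (-0.93 to -0.82, limma adjusted p 0.107 to 0.116), and Socs3 was not called with its probe sets averaged (-0.49). Of the listed brakes that did not pass, Cblb differed by -0.12, Itch by -0.07, Dgka by 0.03, Dgkz by -0.02 and Lag3 by -0.07 (named after their values were seen). Without the fold limit 7 lower genes and 1 higher gene of the list met the adjusted p, against 3.0% of all genes lower and 2.27% higher. Egr2 itself differed by -0.04 and Egr3 by -0.20.

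Among 12 genes linked to NR4A factors in dysfunctional and tolerant T cells, Ctla4 fell and the interleukin 7 receptor gene Il7r rose (0.72 ± 0.07). The other 10 did not pass, and the median was -0.02. Over all genes 1.03% were called lower and 0.37% higher. At an unadjusted limma p under 0.05 there were 2 lower and 3 higher (17.1% of all genes reached it). Among 23 partners, regulators and targets of IRF4 1 gene rose, Ikzf3, which encodes the Ikaros family factor Aiolos, from 8.03, 8.01 and 8.14 with vehicle to 8.89, 8.90 and 8.94 with icilin (0.85 ± 0.07, limma adjusted p = 0.00146). The median of that list was -0.04. An unadjusted limma p under 0.05 was reached by 3 lower and 4 higher genes of the list, and by 17.1% of all genes. Its 3 further genes that met the adjusted p without the fold limit, named after their values were seen, were Batf (-0.49), its relative Batf3 (0.47) and the T helper regulator gene Tbx21 (0.47). Over all genes 5.28% met that adjusted p without a fold limit.

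The arrays carried the markers of the labelled cell type. The 6 measured CD4 T cell markers were at brightness percentiles from 92.6 (Cd3d) to 99.7 (Cd3e), and limma and SAM called 0 of them. Cd28 alone reached an unadjusted limma p under 0.05; it was higher by 0.34 ± 0.07 with arrays that did not overlap (limma adjusted p = 0.0529, short of 1.5-fold). Factor genes of this kind are also active in B cells and antigen-presenting cells, so those markers are given beside Nr4a2 and Irf4. Over all genes 1.03% were called lower and 0.37% higher. Of 7 B and plasma cell markers 1 rose (Ms4a1, 1.01 ± 0.10), while Ebf1 differed by -0.73 ± 0.20 with arrays that did not overlap (limma adjusted p = 0.128; called lower by SAM). The mean log2 level of the list ran from 4.47 to 4.58 on vehicle and from 4.60 to 4.63 on icilin arrays. Of 8 myeloid markers, all dimmer than the median gene, 1 rose (Mpeg1, 0.75 ± 0.16). That call was lost when replicate 1 or 3 of either group was left out (0.63 to 0.76, limma adjusted p of 0.152 to 0.163). It was also lost with the replicate block (limma adjusted p of 0.15). An unadjusted limma p under 0.05 was reached by 2 higher myeloid markers, Mpeg1 and Itgam (0.21 ± 0.06, limma adjusted p = 0.151). The 1 lower was Csf1r (-0.26 ± 0.09, limma adjusted p = 0.216). The arrays of Itgam and of Csf1r did not overlap between groups. The myeloid list means were 3.16 to 3.25 on vehicle and 3.31 to 3.40 on icilin arrays. Of 7 dendritic cell markers 2 were brighter than the median gene (H2-Ab1 and Cd209a) and 1 fell, the MHC class II gene H2-Ab1 (-1.22 ± 0.08), with list means of 5.52 to 5.65 on vehicle and 5.31 to 5.35 on icilin arrays. Of 7 natural killer and CD8 T cell markers Eomes rose (0.67 ± 0.07) and Crtam fell (list means 4.47 to 4.56 with vehicle, 4.34 to 4.44 with icilin). At an unadjusted limma p under 0.05, which 17.1% of all genes reached, there were 2 higher, with Cd8b1 (0.39 ± 0.12, arrays not overlapping, limma adjusted p = 0.167). The 3 lower included Klrb1c (-0.52, limma adjusted p = 0.135) and Klrd1 (-0.27, limma adjusted p = 0.0843, short of 1.5-fold). Of 2 red cell and platelet markers limma and SAM called 0, and 1 reached an unadjusted limma p under 0.05, in the lower direction (17.1% of all genes reached it). The part of other cells in the fall of Nr4a2 was not tested.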

How the data were processed

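Values in the deposited table are on a log2 scale and were made by the authors with RMA, per the series design text and the submitters' processing notes; background correction and normalization were not redone, and the genome build is not given in the sources used here. RMA makes arrays alike, so a change shared by most genes would not show. Of 41345 probe sets, 23521 have 1 gene symbol in the array annotation; the brightest per gene was kept, giving 22180 genes. Groups came from the sample titles. Icilin minus vehicle was tested with limma 3.58.1 (lmFit, eBayes; 4 residual and 3.07 prior degrees of freedom), two-sided, Benjamini-Hochberg adjusted over all genes, and called at an adjusted p under 0.1 and 1.5-fold, the limits of the study, whose own test was SAM. Intervals use the moderated variances. The number of arrays limits precision: the median SE over all genes was 0.09. Arrays correlated at r = 0.996 within groups and 0.994 between them, across genes. The labels do not tie an array to a mouse, so p-values measure the spread between these arrays.

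Named genes were the 10 factors, up to 4 called genes of each list by size (otherwise the smallest p) and the 3 genes most like the called factor. Members and lists were chosen with earlier results of these data known. Of 149 listed genes, 11 have no probe set of their own here. Alternatives were the replicate block, trend and robust variances, centring, quantile normalization, no dim genes, mean of probe sets, every probe set, each array left out, SAM (20 assignments) and no fold limit. limma and SAM were also run on simulated data. The changes planted there were larger than 1.5-fold and in genes brighter than the median, so smaller changes were not covered. Promoter windows were matched by symbol for 7 of the 10 genes; Nfatc1, Egr1 and Egr3 had no entry.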

Additional observations from a re-analysis of the deposited data

How the results depend on the processing

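Nr4a2 was called lower, and the only one of the 10 factor genes called, in the 13 alternative limma fits and by SAM, at -0.92 to -0.84 with single arrays left out. Without a fold limit 2 factor genes passed an adjusted p under 0.1 and 2 under 0.05 (Nr4a2 and Egr1); over all genes these counts were 1170 and 734 against 311 with the limit, and over the 7 lists 30 and 26 against 13. Also without it, an adjusted p under 0.1 was met by 4 factor genes with trend and robust variances (with Nfatc2 and Irf4). With dim genes left out 5 met it (with Egr3 too). The share of all genes that met it in these 2 fits without a fold limit is not given here. These member counts thus have no background to be read against, and the cause was not tested. Egr2 turned sign, to 0.01, without icilin replicate 3 and without vehicle replicate 1 (range -0.09 to 0.01); the cause was not tested. The other 9 genes kept their direction in all 13 fits. With single arrays left out, 279 to 328 genes and 12 to 13 list genes were called. Arrays of the same number did not deviate together (r of deviations -0.0216 to -0.0051 over 3 pairs), nor did any other pairing (highest 0.0363), so the data do not show whether a number names a mouse; with the replicate block 283 genes were called, Nr4a2 stood at -0.87 (limma adjusted p = 0.0181) and Egr1 at 0.30 (0.157). The within-family differences, recomputed by scaling, averaging and leaving out arrays after the data were seen, kept their direction. Dim genes such as Il3 are compressed toward 0 by RMA.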
